A study of Apis mellifera with 12 samples.

Results

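The genes described here are the C-minus odorant binding proteins of the honey bee (Apis mellifera), the 8 rows of the count table named Obp13 to Obp19 and Obp21, out of 12319 genes; 11 further genes of the table have an Obp symbol. Antennal RNA had been sequenced on a DNBSEQ instrument in 12 libraries, 3 for each kind of worker: the newly emerged, nurses that tend brood, foragers that collect food outside, and defenders. All were worker antennae with no treatment named. The labels give no age, colony, strain, number of bees behind a library or mark of a defender, so task and age cannot be told apart. The labels do not say whether the libraries of a group came from separate bees or colonies, and the p-values measure only the spread between these libraries, which may be technical. The series title asks how the antennal transcriptome diverges along the division of labour.

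Odorant binding proteins are small secreted proteins that support cells release into the fluid around olfactory neurons, where they take up hydrophobic odorants and carry them towards the receptors. Classical members are held together by disulfide bridges between conserved cysteines, and the C-minus subfamily is named for having lost a pair of these. Several are also made outside the antenna, in glands and in the body cavity, where they are thought to carry other hydrophobic molecules. The cysteines of the 8 genes were not checked, since no protein sequence was used here, and Obp13 is counted in by the rule on names. In the NCBI gene list of the Amel_HAv3.1 assembly the 8 genes follow each other on linkage group 15 in the order Obp13, Obp14, Obp15, Obp16, Obp17, Obp18, Obp19, Obp21, with 0 listed genes between any of them. Neighbouring copies such as these can share reads, and the sources used here do not say how the authors assigned such reads.

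Library totals ran from 66708813 to 119703929 counts, and 11271 genes were tested. The antennal markers Or2, Or11, Obp1 and Obp2 summed to 16904 to 20437 CPM (counts scaled to a common library size, with a correction for composition) in newly emerged workers, 33547 to 35656 in nurses, 32308 to 44613 in foragers and 30906 to 34405 in defenders, so that every newly emerged library lay below all others, as for most of the 8 genes. Most of this sum came from Obp1 and Obp2, with means of 9910 and 8767 CPM in newly emerged workers and 18316 and 16151 in nurses. It is thus mainly a measure of 2 further Obp genes. Of these 4 markers Or11, Obp1 and Obp2 were higher in each of the other groups than in newly emerged workers. The co-receptor gene Or2 was lower in nurses and foragers and was not called in defenders. The 2 neuron markers found summed to 1175 to 1204 CPM in newly emerged workers and 1316 to 1637 CPM in the other groups, and 2, 1 and 1 of them were higher. Markers of other cell types moved between the groups as well. The 8 hypopharyngeal gland markers summed to 33.8 to 37.3 CPM in newly emerged workers, 392 to 2480 in nurses, 428 to 432 in foragers and 274 to 295 in defenders, and 8, 3 and 5 of the 8 were higher in nurses, foragers and defenders than in newly emerged workers. The 6 muscle markers found summed to 1994 to 2266 CPM in newly emerged workers and 832 to 1448 CPM in the other groups, and 4, 5 and 5 of them were lower. The 4 fat body markers found summed to 34.1 to 47.9, 42.1 to 228, 11.6 to 17.4 and 17.4 to 41.8 CPM in the same order of groups. The hemocyte marker PPO was at 21.8 to 24.3, 26.4 to 48.8, 9.25 to 9.99 and 10.4 to 12.3 CPM, higher in nurses and lower in foragers and defenders than in newly emerged workers. None of these markers was at 0 in a whole group, and the part of these cell types in the results below was not tested. In whole antennae, fewer cells of a type and less RNA per cell cannot be told apart.

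All 8 genes passed the filter on low counts, but Obp13 reached 10 counts in all 3 libraries of newly emerged workers only and in 1 library of each other group. Together the 8 genes took 4.96% to 5.91% of the counts of the 19 Obp genes in newly emerged workers, 6.96% to 10.1% in nurses, 9.42% to 12.4% in foragers and 9.69% to 10.5% in defenders. Every library of the other 3 groups lay above every newly emerged library in that share. When the 4 groups were tested together, 6 of the 8 genes passed after adjustment, against 48.5% of all genes tested. Obp13 (adjusted p = 0.0634) and Obp18 (adjusted p = 0.244) did not pass in edgeR's quasi-likelihood test with Benjamini-Hochberg adjustment.

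**Figure D1:**
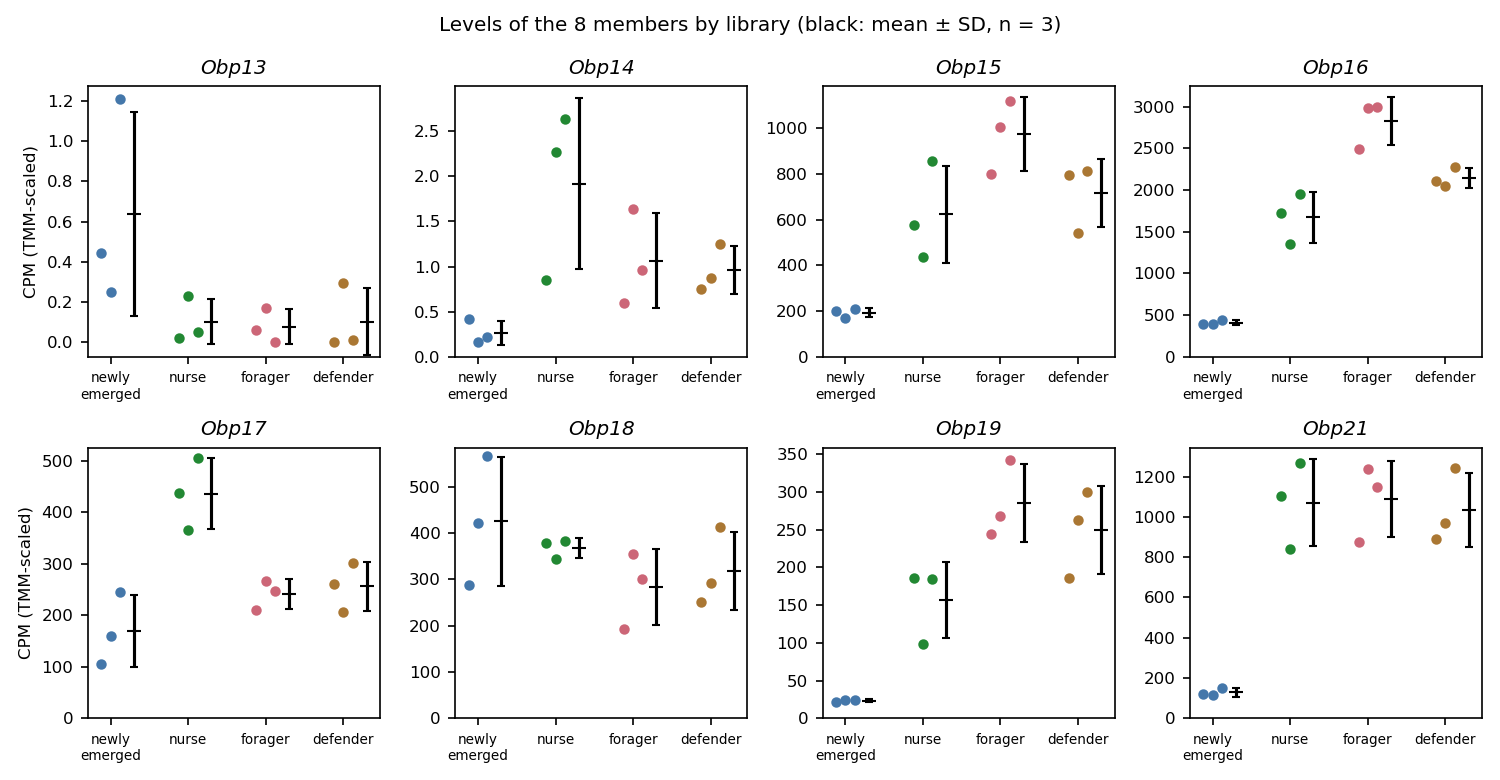
Level of each gene in each library, in CPM on a linear axis, by group; points are libraries and the black marks give the mean ± SD (n = 3). Obp15, Obp16, Obp19 and Obp21 were lowest in all 3 newly emerged libraries, Obp17 was highest in the 3 nurse libraries, Obp18 overlapped between all groups, and Obp13 and Obp14 stayed below 3 CPM.

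Obp21 has been reported to bind components of the queen's mandibular pheromone. It stood at 119, 114 and 152 CPM in the newly emerged libraries, at 1101, 842 and 1268 in the nurse libraries, at 875, 1235 and 1149 in the forager libraries and at 889, 970 and 1243 in the defender libraries. The newly emerged libraries were all far below the rest, and the other 3 groups overlapped. The log2 fold change against newly emerged workers was 3.06 in nurses (SE 0.20, adjusted p = 7.32e-07), 3.08 in foragers (SE 0.20, adjusted p = 3.07e-07) and 3.01 in defenders (SE 0.20, adjusted p = 3.71e-07). Among the last 3 groups the estimated differences were 0.02 (95% interval -0.38 to 0.42, forager against nurse), -0.05 (-0.45 to 0.35, defender against nurse) and -0.07 (-0.47 to 0.33, defender against forager) on the log2 scale, and their adjusted p-values ran from 0.850 to 0.974. These 3 contrasts against newly emerged workers share the same 3 control libraries, as do those of every gene below.

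Obp16 is an antennal carrier that has been linked to hygienic behaviour, the removal of diseased or dead brood, and to binding of oleic acid, a death cue. Its libraries stood at 399, 388 and 444 CPM in newly emerged workers and at 1724, 1348 and 1947 in nurses. Foragers had 2493, 2989 and 2992 CPM and defenders 2105, 2048 and 2278. The 4 groups did not overlap at any point, in the order newly emerged, nurse, defender, forager. The rise over newly emerged workers was 4.08-fold in nurses, 6.88-fold in foragers and 5.22-fold in defenders (log2 fold changes 2.03, 2.78 and 2.39; SE 0.14 each; adjusted p = 8.12e-07, 5.17e-08 and 1.33e-07). Foragers exceeded nurses by 1.69-fold (log2 fold change 0.76, SE 0.13, adjusted p = 0.00881), a call that was lost when only the 6 libraries of these groups were fitted (adjusted p = 0.0868). Defenders lay between nurses and foragers without passing the test on either side (log2 fold change 0.36, adjusted p = 0.102 against nurses, and -0.40, adjusted p = 0.100 against foragers). With the library number as a block and the nurse libraries left out, the difference from foragers passed (-0.40, adjusted p = 0.0310).

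Obp15 and Obp19 showed the same order of group means as Obp16. Obp15 was at 202, 169 and 208 CPM in newly emerged libraries, 577, 436 and 856 in nurse libraries, 802, 1004 and 1121 in forager libraries and 795, 544 and 812 in defender libraries. The newly emerged libraries lay below all others, and nurses overlapped with both foragers and defenders. Its rise over newly emerged workers was 3.22-fold in nurses, 5.05-fold in foragers and 3.71-fold in defenders (adjusted p = 0.000192, 1.17e-05 and 6.01e-05). The difference of foragers from nurses was 0.65 on the log2 scale and did not pass (SE 0.23, edgeR adjusted p = 0.157). It passed without nurse library 3 (adjusted p = 0.0301) and with the library number as a block (0.69, adjusted p = 0.0486).

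Obp19 rose most against newly emerged workers among the 8 genes in foragers and defenders. It stood at 21.5, 24.7 and 24.1 CPM in newly emerged libraries, 186, 98.3 and 185 in nurse libraries, 244, 268 and 343 in forager libraries and 186, 263 and 300 in defender libraries. The lowest forager library was above the highest nurse library, while a defender library fell within the range of the nurses. The fold over newly emerged workers was 6.68 in nurses, 12.2 in foragers and 10.7 in defenders (log2 fold changes 2.74, 3.61 and 3.41; SE 0.25 to 0.26; adjusted p = 8.82e-06, 6.99e-07 and 1.09e-06). Against nurses, foragers had a log2 fold change of 0.87 (SE 0.24, adjusted p = 0.0645) and defenders of 0.67 (SE 0.23, adjusted p = 0.0897). DESeq2 called both (adjusted p = 0.00669 and 0.0343).

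Obp17 peaked in nurses. It stood at 106, 160 and 245 CPM in newly emerged libraries, 438, 366 and 504 in nurse libraries, 209, 266 and 247 in forager libraries and 261, 205 and 302 in defender libraries. All 3 nurse libraries were above every library of the other groups, which overlapped with each other. The rise from newly emerged workers to nurses was 2.56-fold (log2 fold change 1.36, SE 0.25, adjusted p = 0.00146). Against nurses, foragers were at -0.86 (95% interval -1.40 to -0.31, adjusted p = 0.0863) and defenders at -0.77 (95% interval -1.31 to -0.22, adjusted p = 0.0746) on the log2 scale. Neither passed in edgeR's shared fit of the 4 groups. With the library number as a block edgeR called both (adjusted p = 0.0478 and 0.0344). With only the 6 libraries compared it called the forager value alone (adjusted p = 0.0496). DESeq2 called both (adjusted p = 0.0128 and 0.0194).

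Against newly emerged workers, Obp17 had log2 fold changes of 0.50 in foragers and 0.59 in defenders (adjusted p = 0.117 and 0.0904). With the library number as a block these differences passed (adjusted p = 0.0434 and 0.0349), and they passed without newly emerged library 3 (0.86 and 0.93; adjusted p = 0.00812 and 0.00767). That library had the highest Obp17 level of its group.

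Obp18, like Obp16 an antennal carrier linked to hygienic behaviour, did not share the rise. It stood at 288, 422 and 566 CPM in newly emerged libraries, 380, 343 and 383 in nurse libraries, 194, 355 and 300 in forager libraries and 251, 292 and 413 in defender libraries. Every pair of groups overlapped, and the spread was widest among newly emerged libraries. The log2 difference from newly emerged workers was -0.21 in nurses (95% interval -0.78 to 0.36), -0.59 in foragers (-1.16 to -0.02) and -0.42 in defenders (-0.99 to 0.15), with adjusted p = 0.559, 0.0829 and 0.247. With the library number as a block the forager value passed (-0.57, adjusted p = 0.0308), as it did with DESeq2 (adjusted p = 0.0482), without newly emerged library 1 (adjusted p = 0.0273) and without forager library 2 (adjusted p = 0.0442). The nurse value turned to 0.055 without newly emerged library 3.

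Obp14, whose crystal structure is known and which binds plant odorants such as eugenol, was detected at low levels. It had 43, 11 and 20 counts in the newly emerged libraries, 79, 168 and 252 in the nurse libraries, 60, 164 and 75 in the forager libraries and 59, 107 and 132 in the defender libraries. Every library of the other groups lay above the newly emerged ones in CPM, which reached 0.417 at most, and nurses had 0.847, 2.27 and 2.63 CPM. The log2 fold change against newly emerged workers was 2.81 in nurses (SE 0.51, adjusted p = 0.00124), 1.97 in foragers (SE 0.51, adjusted p = 0.00755) and 1.82 in defenders (SE 0.51, adjusted p = 0.0155). The defender call was lost without newly emerged library 2 or 3 or defender library 3 (adjusted p = 0.0596, 0.0603 and 0.0574).

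Obp13, reported from mandibular glands and as a binder of oleic acid, was near the limit of detection and went the other way. It had 46, 17 and 113 counts in newly emerged libraries, 2, 17 and 5 in nurse libraries, 6, 17 and 0 in forager libraries and 0, 36 and 1 in defender libraries. In the libraries with 0 counts, 3 counts would be 0.0384 CPM in forager library 3 and 0.0380 CPM in defender library 1. These limits cover counting error only. The newly emerged libraries lay above every nurse and forager library in CPM, and overlapped with defender library 2. Outside newly emerged workers Obp13 reached 10 counts in only 1 library of each group. Its fold changes thus rest on few and uneven counts and are a description.

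The fitted log2 fold change of Obp13 against newly emerged workers was -2.74 in nurses, -2.98 in foragers and -2.51 in defenders (SE 1.05 to 1.12), and the forager value alone was called (edgeR adjusted p = 0.0451, against 0.0689 in nurses and 0.0872 in defenders). Single libraries moved these values. In nurses it was -1.88 without newly emerged library 3 and -4.07 without nurse library 2, and it was called with the library number as a block (-3.20, adjusted p = 0.0359) and with only the 6 libraries compared (adjusted p = 0.0337). In foragers it was -2.11 without newly emerged library 3 and -4.23 without forager library 2. The forager call was lost without newly emerged library 1 or 3 or forager library 1 or 3 (adjusted p = 0.0627 to 0.184), with upper-quartile factors (adjusted p = 0.0550) and with DESeq2 (adjusted p = 0.119). In defenders it was -1.66 without newly emerged library 3, and it was called with the library number as a block (-3.20, adjusted p = 0.0402), though not with the nurse libraries left out as well (-2.85, adjusted p = 0.0715). Without defender library 2 the group held 0 and 1 counts, and although the test passed (adjusted p = 0.0100) no size can be read from it.

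**Figure D2:**
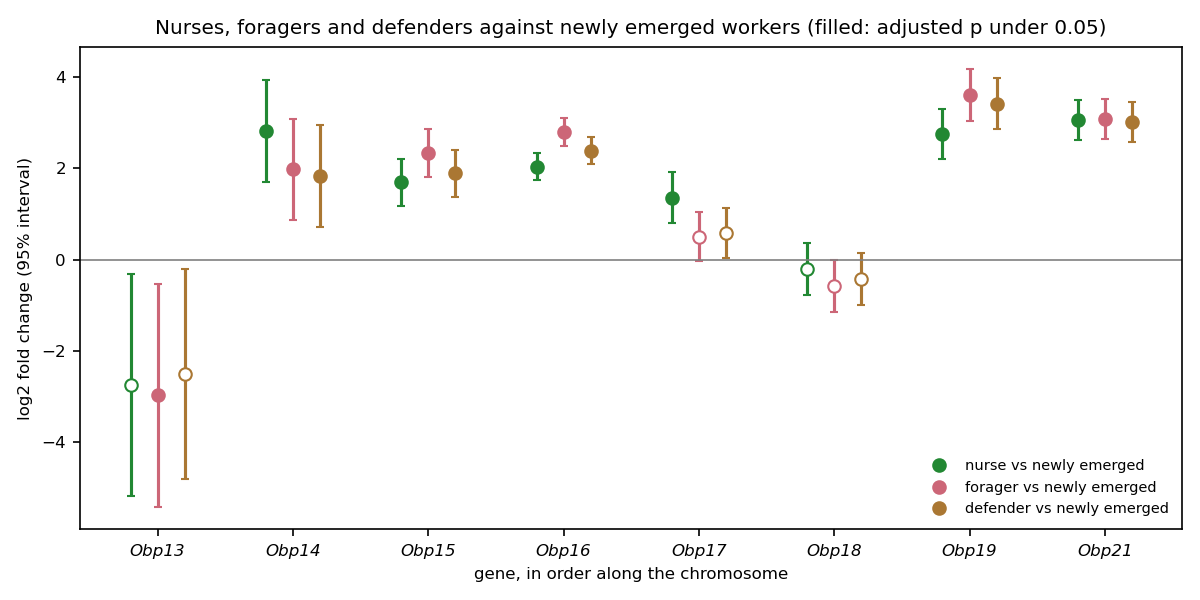
Log2 fold change of nurses, foragers and defenders against newly emerged workers for the 8 genes in their order along the chromosome; bars are 95% intervals and filled points have an adjusted p under 0.05 in edgeR. Obp14, Obp15, Obp16, Obp19 and Obp21 lie above 0 in all 3 comparisons, Obp17 is filled in nurses alone, Obp18 is filled in none, and Obp13 lies below 0 with wide intervals.

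Counted over the 8 genes, 6 were higher in nurses than in newly emerged workers and 0 lower, where 18.9% of all tested genes were called higher and 20.7% lower. In foragers 5 were higher and 1, Obp13, was lower (23.6% and 24.4% of all genes), and in defenders 5 were higher and 0 lower (17.7% and 16.7%). With the library number as a block, 6 were higher and 2 lower in foragers (23.8% and 25.4% of all genes), and 6 higher and 1 lower in defenders (18.5% and 17.4%). The lower counts in foragers, and with the block in defenders, include Obp13, whose calls are a description for the reason above. Without Obp13 the shared fit of the 4 groups called 0 lower in nurses, foragers and defenders. All 3 libraries of a group lay apart from the 3 newly emerged ones for 7 genes in nurses, 6 in foragers and 5 in defenders, as for 52.3%, 56.3% and 54.8% of all genes. Over the 7 genes other than Obp13 the counts were 6, 5 and 5. The median log2 fold change of the 8 genes was 1.86 in nurses, 2.15 in foragers and 1.86 in defenders, beside 0.02, 0.01 and -0.0013 over all genes, and 2.03, 2.34 and 1.89 without Obp13. Among the other 11 Obp genes, 7, 9 and 7 were higher and 1 lower in each, with medians of 0.89, 0.97 and 0.81. Obp5 and Obp11 had the smallest adjusted p of those that rose in all 3 comparisons, though not the largest fold change, and Obp10 was the gene that fell. Obp5 went from 527 ± 61.6 CPM in newly emerged workers to 1548 ± 53.0 in nurses (SD, n = 3; log2 fold change 1.55, adjusted p = 2.37e-06). Of 34 odorant receptor genes, which act downstream of the carriers, 20, 23 and 20 were higher and 1, 1 and 0 lower. Of 5 chemosensory protein genes, another family of soluble carriers, 0, 1 and 0 were higher and 4, 2 and 3 lower.

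Among nurses, foragers and defenders few of the 8 genes passed. In foragers against nurses Obp16 was the 1 gene called higher and 0 were called lower, where 1.91% of all genes were called higher and 2.10% lower. Another 3 had an unadjusted p under 0.05, making 4 (17.2% of all genes), and DESeq2 called 2 higher and 1 lower (3.86% and 3.75% of the genes it tested). In defenders against nurses edgeR's shared fit of the 4 groups called 0 of the 8 genes, against 4.63% of all genes higher and 3.11% lower. Of the 8, 3 had an unadjusted p under 0.05 (27.5% of all genes), and DESeq2 called 1 higher and 1 lower (9.46% and 7.02%). The count over all genes depended on the fit in defenders against foragers. With the shared fit of the 4 groups edgeR called 0 of the 8 and 0 of all 11271 genes (0%). With the library number as a block, by which these libraries deviated together, edgeR called 4.81% of all genes higher and 1.11% lower and still 0 of the 8. With the nurse libraries left out as well it called 8.82% higher and 2.25% lower, Obp16 among the lower. With only the 6 libraries of these groups the shares were 6.36% and 1.48%, with 0 of the 8. Obp16 alone had an unadjusted p under 0.05 in the shared fit, as had 24.0% of all genes, and DESeq2 called it lower, where it called 7.68% of genes higher and 4.76% lower. The groups did not overlap for 3, 2 and 1 of the 8 genes in these comparisons, in the order given, as for 18.1%, 38.0% and 32.0% of all genes. Over the other 11 Obp genes edgeR called 0 in each of these 3 comparisons.

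**Figure D3:**
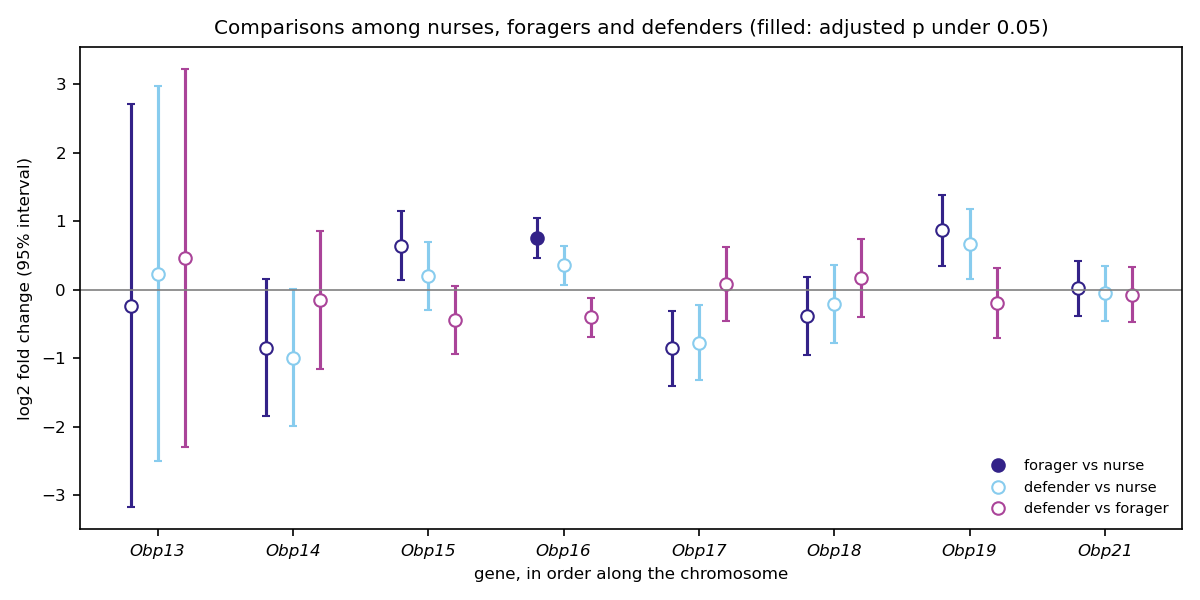
Log2 fold changes of the 8 genes in the 3 comparisons among nurses, foragers and defenders, with 95% intervals; filled points have an adjusted p under 0.05. Obp16 in foragers against nurses is the only filled point, Obp17 lies below 0 in both comparisons with nurses, and the intervals of Obp13 reach from -3.17 to 3.23.

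Since the genes lie side by side, the ratio of each to its neighbour was compared within libraries, which makes it independent of library scaling. A one-way F statistic on the log2 ratio was set against all 369600 assignments of the 12 libraries to the groups (exact permutation test, smallest possible p = 6.49e-05, Benjamini-Hochberg adjustment over 7 pairs, which share genes). The test passed in 5 of the 7 pairs, of which Obp13 to Obp14 is given as a description for the reason above. Other neighbouring genes were not tested in this way, so the count has no share over all genes beside it. Of all genes tested singly, 48.5% differed over the 4 groups. Obp16 to Obp17 had log2 ratios of 1.35 ± 0.53 in newly emerged workers, 1.94 ± 0.05 in nurses, 3.55 ± 0.06 in foragers and 3.08 ± 0.21 in defenders (SD, n = 3; exact permutation, adjusted p = 0.000455). Forager and defender libraries were all above nurse and newly emerged libraries, and the nurse libraries, at 1.98, 1.88 and 1.95, hardly varied although nurse library 2 was lowest for both genes. Nurse and newly emerged libraries overlapped, since newly emerged library 1 was at 1.91.

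Obp18 to Obp19 went from 4.13 ± 0.41 in newly emerged workers to 1.29 ± 0.44 in nurses, -0.04 ± 0.39 in foragers and 0.35 ± 0.17 in defenders (exact permutation, adjusted p = 0.000455). Obp17 to Obp18 was at -1.35 ± 0.12 in newly emerged workers and at 0.23 ± 0.15, -0.20 ± 0.27 and -0.30 ± 0.31 in nurses, foragers and defenders (exact permutation, adjusted p = 0.00576). All newly emerged libraries stood apart from the rest in both ratios. Obp19 to Obp21 was lowest in nurses at -2.81 ± 0.27 and highest in foragers at -1.93 ± 0.24 (exact permutation, adjusted p = 0.0100).

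Obp13 to Obp14 was at 1.04 ± 1.24 in newly emerged workers and at group means between -4.50 and -4.19 elsewhere (exact permutation, adjusted p = 0.0318). Outside newly emerged workers these ratios rest on 0 to 36 counts of Obp13 and are set in part by the 1 count added. The call was lost without any 1 of the newly emerged libraries (adjusted p = 0.0589 to 0.102) and with the library number as a block (adjusted p = 0.0709). The ratio of Obp15 to Obp16 spanned the least, from -1.09 ± 0.11 in newly emerged workers to -1.60 ± 0.27 in defenders, and did not pass (exact permutation, adjusted p = 0.0642, and 0.0331 without nurse library 3). Obp14 to Obp15 did not pass either (exact permutation, adjusted p = 0.102, and 0.0360 without nurse library 1).

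**Figure D4:**
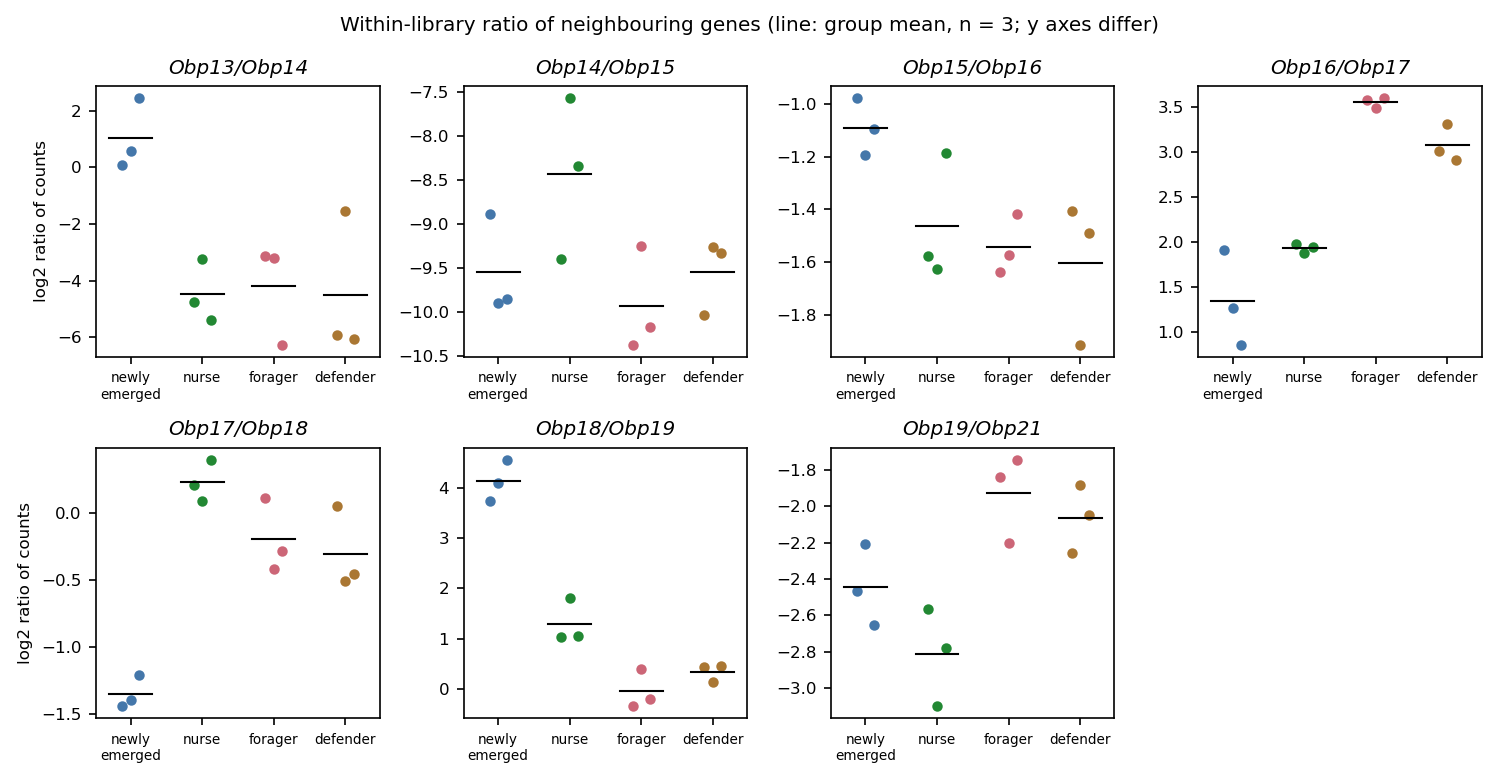
Log2 ratio of the counts of neighbouring genes in each library, by group; points are libraries, lines are group means (n = 3), and each panel has its own vertical axis. Obp18/Obp19 falls from 4.13 in newly emerged workers to -0.04 in foragers, and Obp16/Obp17 rises from 1.35 to 3.55.

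The make-up of the counts of the 8 genes moved accordingly. These are shares of counts and not per transcript length, so they are compared between groups and not between genes. Obp18 gave 25.3% to 34.5% of them in newly emerged libraries, 7.43% to 9.99% in nurses, 4.02% to 5.80% in foragers and 5.59% to 7.73% in defenders. Obp21 gave 8.91% to 10.5% in newly emerged libraries, 24.5% to 25.0% in nurses, 18.2% to 20.2% in foragers and 19.8% to 23.2% in defenders. Obp16 gave 27.1% to 35.1%, 37.8% to 39.2%, 48.6% to 51.7% and 42.6% to 47.4%. In the shares of Obp16 no 2 groups overlapped, and in those of Obp21 only foragers and defenders did.

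**Figure D5:**
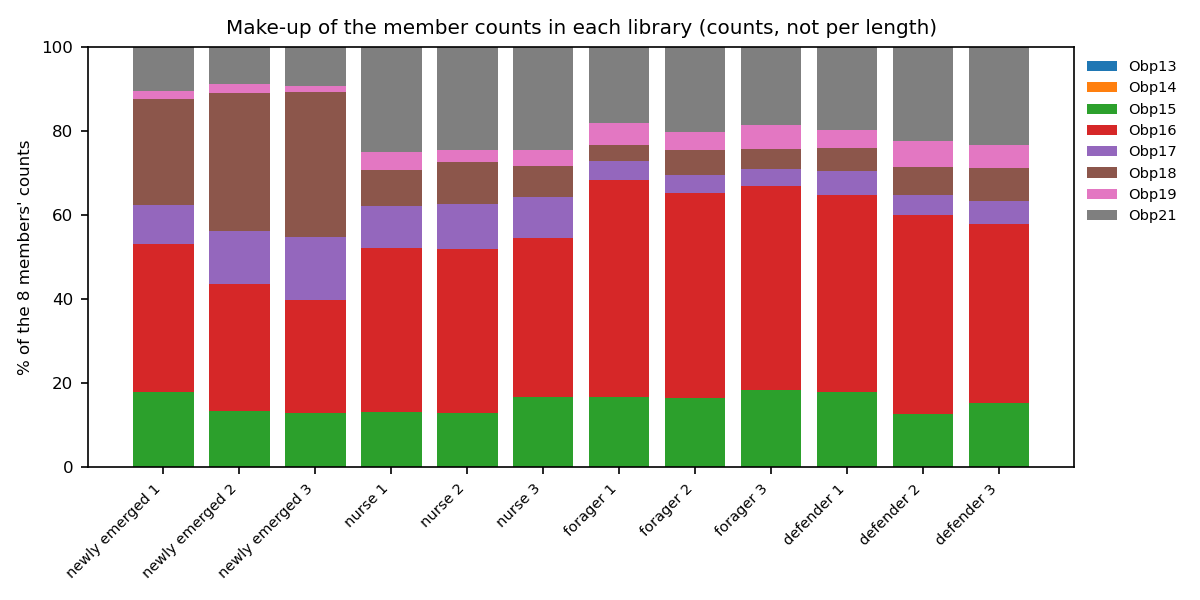
Share of the counts of the 8 genes that each gave, in percent, for each of the 12 libraries. The Obp18 segment shrinks from 25.3% to 34.5% in newly emerged libraries to under 10% elsewhere, and the Obp16 and Obp21 segments widen; Obp13 and Obp14 are too small to be seen.

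Within groups the 8 genes often shared their highest and lowest library. The same ranks were not counted over all genes, so it is not known whether this is particular to them. Nurse library 2 was lowest of the 3 nurse libraries for 6 of the 8 genes, all but Obp13 and Obp14, and nurse library 3 was highest for 6. Forager library 1 was lowest for 7, newly emerged library 3 highest for 6 and defender library 3 highest for 7. The fat body markers summed to 42.1, 228 and 120 CPM and the gland markers to 2480, 676 and 392 CPM in nurse libraries 1, 2 and 3, and their part in this order was not tested.

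For each of the 8 genes, the gene outside the set with a symbol whose log2 CPM followed it most closely over the 12 libraries was found among 290 candidates. The libraries fall into separate groups, so these values of Pearson's r describe shared group differences and were not tested. Obp19 was followed by the alpha-glucosidase gene AGLU2 (r = 0.988), Obp16 by the catalase gene Cat (r = 0.987), Obp15 by the peroxidase gene Gtpx1 (r = 0.985) and Obp21 by the carrier gene Obp11 (r = 0.984). For Obp14 it was B-gluc1 (r = 0.892), for Obp17 Qbp-1 (r = 0.835), for Obp13 the chaperone gene Hsc70-3 (r = 0.828) and for Obp18 the glutamate transporter gene Eaat-2 (r = 0.826). Cat had the group order of Obp16, with 386 ± 19.0 CPM in newly emerged workers, 635 ± 71.8 in nurses, 739 ± 29.7 in defenders and 817 ± 21.8 in foragers (SD, n = 3). None of the 491 splice events in the authors' tables was in any of the 8 genes.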

How the data were processed

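Antennal RNA of 12 worker libraries in 4 groups was sequenced on a DNBSEQ instrument, per the labels. The authors deposited whole-number counts per gene, not normalized, and tables of splice events holding inclusion levels as a fraction, which were searched for the 8 genes only. No source used here names the aligner, counter, build, annotation or strand setting. The protocol and processing fields of the labels are those of a chromatin experiment on human cells and were left aside. The members and gene lists were chosen with earlier results of these data known. Groups came from the sample titles and columns were joined by initials and the number after the group name.

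Counts of genes kept by filterByExpr (11271 genes, 99.998% of counts) entered edgeR 4.0.16 in R 4.3.3 with TMM factors, a robust glmQLFit with 4 group means over all 12 libraries, and two-sided glmQLFTest contrasts. Calls have a Benjamini-Hochberg adjusted p under 0.05 over all tested genes of a comparison. Standard errors are the log2 fold change divided by the root of F, and 95% intervals use the degrees of freedom of that test. The code was tested on simulated data. Depth is the library total. Floors are 3 counts expressed in CPM, with library sizes scaled by the TMM factors as for all levels. Neighbour ratios used 1 count added to both genes. Genes named for likeness had a symbol, at least 5 CPM in a group, and the highest r of log2 CPM (prior count 2). All 8 members were named, and from other lists up to 2 genes per direction with the smallest adjusted p. Replicates differed by a chi-square per gene of 53.0 to 336, so none was a duplicate. Alternatives were DESeq2 1.42.0, upper-quartile factors, library totals, no filter, only the libraries compared, each library left out, and a block for the library number. The library number is the one after the group name in the title. The titles also carry a replicate number, which is 2 for nurse library 1 and forager library 1 and so conflicts with it. By the replicate number, nurse libraries 1 and 2 share a number, as do forager libraries 1 and 2. A block by the replicate number was not tested. The labels do not say that numbers pair libraries. Libraries of newly emerged workers, foragers and defenders with the same library number deviated together (r = 0.176 to 0.423 over all genes for each pair). Pairs with nurse libraries had r from -0.358 to 0.293.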

Additional observations from a re-analysis of the deposited data

How the results depend on the processing

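The 6, 5 and 5 genes called higher in nurses, foragers and defenders against newly emerged workers stayed within 1.5 times these counts under every alternative run, at 4 to 6 when a library was left out. Counts of genes called lower were small and moved. Those against newly emerged workers rest in part on Obp13, which is given as a description. In nurses against newly emerged workers the count went from 0 to 1 with the replicate block and with only the 6 libraries compared. In foragers it went from 1 to 0 with upper-quartile factors, to 2 with the replicate block (also 2 with the nurse libraries left out, an alternative chosen after seeing the data), and ran from 0 to 2 when a library was left out. In defenders it went from 0 to 1 with the replicate block and ran from 0 to 1 when a library was left out. In foragers against nurses the count of higher genes went from 1 to 2 with the replicate block and DESeq2, to 0 with only the 6 libraries, and ran from 1 to 2 when a library was left out; that of lower genes went from 0 to 1 with the replicate block, with only the 6 libraries and with DESeq2. In defenders against nurses the count of lower genes went from 0 to 1 with the replicate block and with DESeq2, and that of higher genes from 0 to 1 with DESeq2. In defenders against foragers the count of lower genes went from 0 to 1 with DESeq2 and with the replicate block without nurses. The cause of these moves was not tested. The test of all 4 groups gave 6 to 7 genes and the neighbour ratios 4 to 6 pairs when a library was left out, and with the replicate block 7 genes and 4 pairs. Deviations of nurse libraries from same-numbered libraries of other groups went both ways, so the numbers are not shown to pair them. The block changed no call beyond those counted here or given above.

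Values that changed sign were all of genes that did not pass. When a library was left out, Obp18 ran from -0.41 to 0.055 in nurses against newly emerged workers (log2 fold change). In foragers against nurses Obp13 ran from -1.48 to 1.09 and Obp21 from -0.13 to 0.16. In defenders against nurses Obp13 ran from -3.84 to 1.56 and Obp21 from -0.22 to 0.089. In defenders against foragers Obp13 ran from -3.61 to 1.73, Obp14 from -0.44 to 0.31, Obp17 from -0.065 to 0.21, Obp18 from -0.077 to 0.37 and Obp21 from -0.24 to 0.031; with upper-quartile factors Obp17 was at -0.018. Those factors moved the median of all genes by 0.12, 0.15 and -0.10 (nurses and foragers against newly emerged workers, defenders against foragers), and the share of calls that were higher in nurses from 47.7% to 63.9% and in foragers from 49.1% to 65.2% (against newly emerged workers), and in defenders against nurses from 59.9% to 41.1%. The counts of Obp13, 0 to 36 outside newly emerged workers, limit what can be said of it at this depth, and its fitted values give no size where they rest on 0 or 1 counts.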

Other observations

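The 4 genes beside the array, 2 on each side, were chosen after the values of the 8 genes were known. Of these, 2 were higher and 1 lower in nurses than in newly emerged workers (18.9% and 20.7% of all genes). In foragers LOC726435 alone passed, as lower (edgeR adjusted p = 0.000452), where 23.6% of all genes were higher and 24.4% lower. In defenders LOC726435 was lower (edgeR adjusted p = 0.000719). There LOC551525, LOC100577418 and LOC551984 were higher (edgeR adjusted p = 0.0373, 0.00837 and 0.0463), beside 17.7% of all genes higher and 16.7% lower. On the side of Obp13, LOC100577418 went from 22.1 ± 0.464 CPM in newly emerged workers to 30.5 ± 5.08 in nurses (SD, n = 3; edgeR log2 fold change 0.46, adjusted p = 0.00965). On the side of Obp21, LOC726435 went from 85.9 ± 3.74 to 57.5 ± 3.27 CPM (log2 fold change -0.58, adjusted p = 0.00147), 54.6 ± 8.27 in foragers and 55.7 ± 4.35 in defenders. Obp21, next to it, had log2 fold changes of 3.01 to 3.08 in the same comparisons. Whether the flanking genes and the array differ in their change was not tested.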
